A study of Rattus norvegicus with 18 samples.

Results

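Bacterial communities in the intestinal contents of 6 untreated control rats were compared with those of 6 rats with induced radiation enteritis, called model rats here. The assay was amplicon sequencing of 16S rRNA, whose gene is used to tell bacteria apart. These 12 libraries, chosen by the group named in their titles, are a subset of 18 in the series; the other 6 are from a treated group that is not described here. All rats are labelled wild-type and all libraries carry the same batch label. The labels call the material both intestinal contents and stool, and the sources used here do not state strain, age, radiation dose or sampling time. The design text calls the replicates biological, but no animal is named per library, so p-values measure the spread between these libraries.

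Radiation enteritis is the injury of the intestinal lining that follows irradiation of the abdomen. The healthy gut community is usually led by a few abundant bacteria and followed by a long tail of rare ones. Dominance says how much of a community its leading members hold, evenness says how equally it is divided over all its members, and turnover says how far one set of members is replaced by another. A feature is a sequence that remained after the authors denoised and clustered their reads. The features carry no taxon here, because the deposited taxonomy shares no identifiers with the counts. They are therefore numbered by mean share over the 12 libraries, feature 1 being the most abundant. One bacterial genome can hold several slightly different copies of the gene, so several features can come from the same organism.

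The 12 libraries held 417009 counts of 5289 features. Control totals ran from 33076 to 40192 counts and model totals from 30958 to 33342, so that a feature without a count can still hold up to 0.00746% to 0.00969% of a library (3 counts), for counting error only. Amplified reads are not independent molecules. A check for libraries deposited more than once found none: over the 66 pairs the chi-square statistic per degree of freedom was at least 24.3, which says nothing further about the spread between libraries. The model libraries did not form a uniform group. Model 1 and model 3 had 278 and 198 features, below every control library, while the other 4 had 708 to 971. Model 5 had the largest Bray-Curtis distance to control, and model 3 had a control library as its nearest neighbour. Shares are parts of a whole and bacterial load was not measured, so a lower share from fewer cells and one from growth of other bacteria cannot be told apart.

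The first question was how far single features dominated a library. The leading feature held 12.4%, 11.5%, 8.46%, 10.6%, 12.7% and 8.18% of counts in control 1 to 6. It held 8.67%, 4.33%, 9.58%, 6.19%, 6.03% and 5.03% in model 1 to 6. All model libraries lay below the control median, 4 of 6 lay below every control library, and model 1 and model 3 fell within the control range. The leading share fell by 3.98 percentage points, from 10.6% ± 1.93 to 6.64% ± 2.06 (SD, n = 6 each; exact two-sided permutation p = 0.0130, adjusted p = 0.0361 over the 5 measures of dominance and evenness). In control the leader was feature 1, feature 2 or feature 5. In model it was feature 1 or feature 2 in 4 libraries, feature 17 in model 1 and feature 24 in model 5.

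The same change was seen in the effective number of features of order 2, the inverse of the summed squared shares, which is the number of equally abundant features that would give the same dominance. It was 18.9, 19.7, 24.3, 18.9, 17.9 and 32.4 in control 1 to 6 and 23.2, 89.3, 23.0, 54.6, 57.6 and 53.8 in model 1 to 6. The mean rose from 22.01 ± 5.57 to 50.3 ± 24.8 (SD, n = 6 each; exact permutation p = 0.0216, adjusted p = 0.0361), and 4 of 6 model libraries exceeded every control library. Pielou evenness, which is 1 when all features are equally abundant, rose from 0.654 ± 0.0305 to 0.739 ± 0.0560 (SD, n = 6 each; exact permutation p = 0.0152, adjusted p = 0.0361). Here too each model value exceeded the median of control, and 4 of 6 exceeded every control library. The 3 calls on dominance and evenness each ended without control 1, 2, 3, 4 or 5 (adjusted exact permutation p = 0.0505 to 0.0577), while their size changed little. For order 2 the difference was then 27.4 to 28.7 in place of 28.2.

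**Figure D1:**
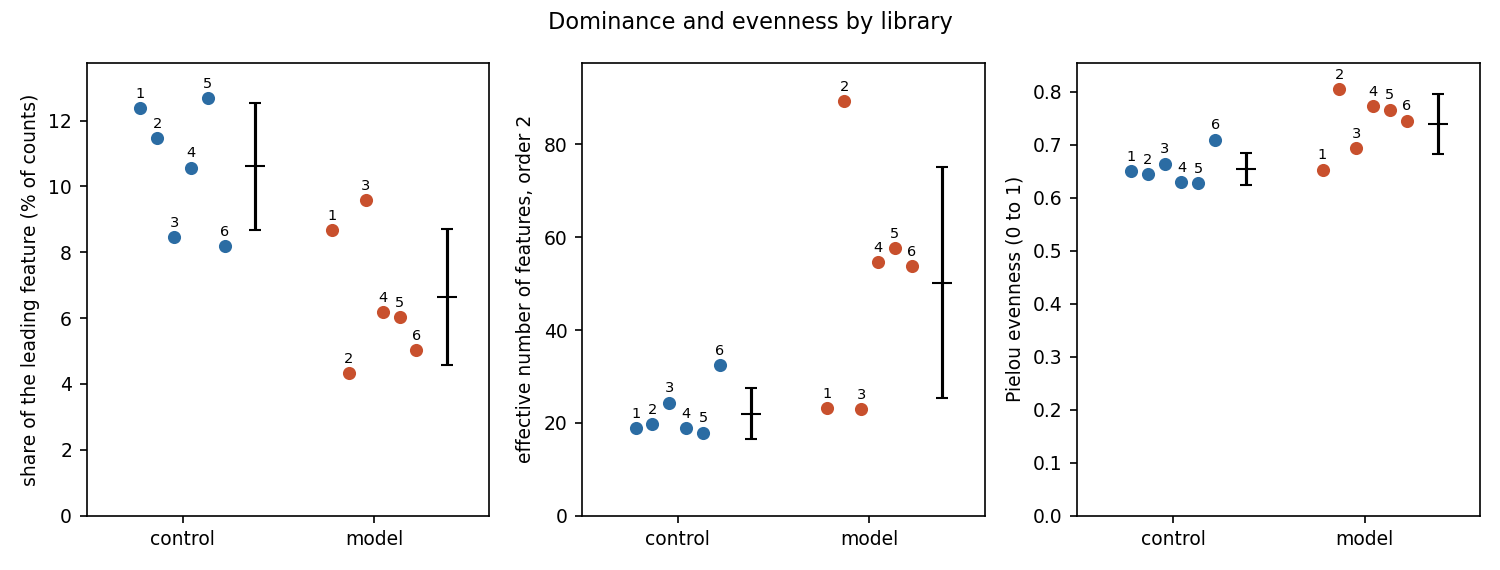
Each point is a library, numbered by replicate, with the group mean and SD beside it (n = 6 each); the panels show the share of the leading feature in percent of counts, the effective number of features of order 2, and Pielou evenness. Model 2, 4, 5 and 6 lie beyond the control range in all panels, and model 1 and model 3 lie within it.

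The effective number of order 1 and the number of features did not pass the test. Order 1, the exponential of the Shannon entropy, averaged 66.3 ± 19.6 in control and 137 ± 84.8 in model (SD, n = 6 each; exact permutation p = 0.0714, adjusted p = 0.0893). Model 2, 4, 5 and 6 held 150 to 253, above the highest control value of 104, and model 1 and model 3 held 39.4 and 39.2, below the lowest control value of 46.4. Without model 1 or model 3 the difference was 90.8 in place of 71.2 and passed (adjusted exact permutation p = 0.0325 each).

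The number of features at an equal depth of 30958 counts split the model group in the same way. It was 439 to 699 in control, 707 to 971 in 4 model libraries, and 278 and 198 in model 1 and model 3. Each model library was thus outside the control range, 4 above and 2 below. The group means of 580 ± 102 and 645 ± 328 (SD, n = 6 each) differed by 64.7 (exact permutation p = 0.649). Without model 2 that difference was -1.01, without model 1 it was 138 and without model 3 it was 154.

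The cumulative curves show where in the order of abundance the groups part. Control libraries needed 6 to 11 features to reach 50% of their counts. Model 2, 4, 5 and 6 needed 45, 30, 25 and 18 features, and model 1 and model 3 needed 9 and 8, as control libraries did. The 10 leading features of a library held 59.1% ± 5.24 in control and 41.7% ± 13.4 in model (SD, n = 6 each). Model 1 and model 3 at 58.9% and 57.9% lay within the control range of 49.7% to 65.4%, and the other model libraries were at 27.7% to 37.6%. Model 1 and model 3 differed from control farther down the curve. They held 81.8% and 78.9% of counts in 21 and 22 features of at least 1% each, against 10 to 15 such features with 49.7% to 70.7% of counts in control libraries.

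**Figure D2:**
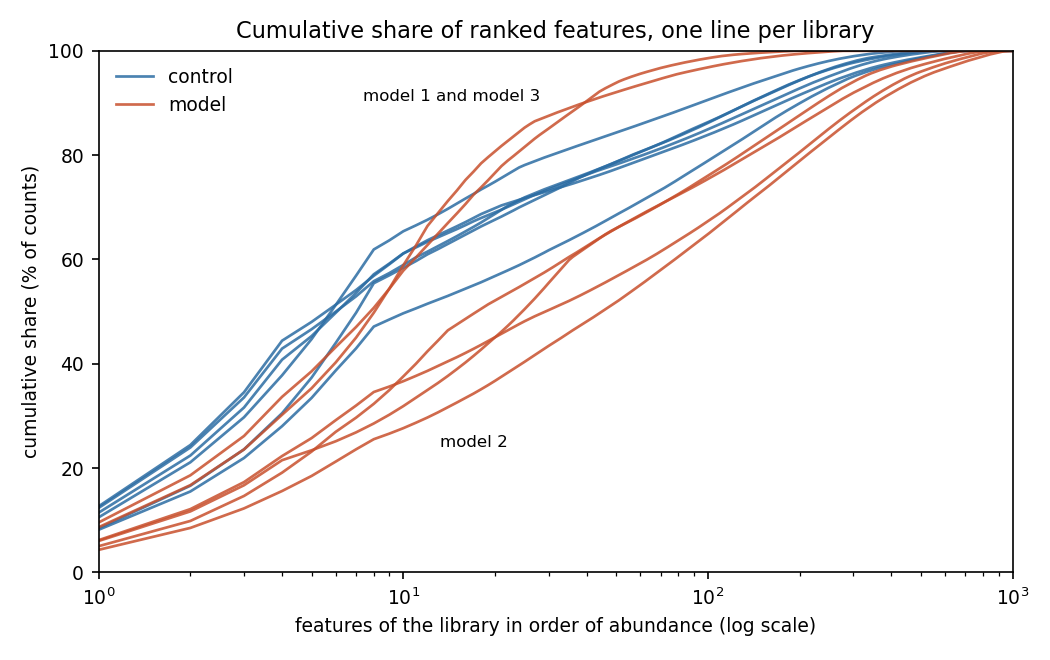
Each line is a library, blue for control and red for model, with features ordered by abundance on a log axis and the cumulative share of counts in percent on the other axis. The 4 lower red lines reach 50% of counts only after 18 to 45 features, while model 1 and model 3 follow control to 50% and then approach 100% with fewer features.

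Features 1 to 8 held most of the counts in 5 of 6 control libraries. Features 1 to 4 rose and fell together over the 12 libraries, with pairwise correlations of shares of at least 0.995, and so did features 5 to 8, at 0.997 or more; these correlations are descriptions, since features of a library share its total. Features 1 to 4 together held 12.9%, 40.8%, 30.2%, 37.8%, 44.4% and 19.1% in control 1 to 6 and 8.84%, 15.6%, 33.7%, 22.3%, 3.82% and 17.6% in model 1 to 6. The groups overlapped, with model 3 near the middle of the control values. Features 5 to 8 held 42.9%, 16.4%, 25.2%, 24.1%, 12.4% and 28.04% in control and 16.9%, 9.93%, 17.1%, 12.3%, 5.57% and 9.29% in model. Here control 5 and control 2 overlapped with model 1 and model 3, and the other 4 model libraries lay below every control library.

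Summed, features 1 to 8 held 55.7% ± 4.81 of control counts and 28.8% ± 13.5 of model counts (SD, n = 6 each). Control libraries lay between 47.1% and 61.9%. Model 3 at 50.7% was inside that range, and the other 5 model libraries were between 9.39% and 34.6%. The mean difference of these 8 features, -26.9 percentage points, was 54.6% of the summed falls over all 5289 features. Singly, none of the 8 passed edgeR's quasi-likelihood test with Benjamini-Hochberg adjustment over all 431 tested features, of which 26.7% passed; all 8 had an unadjusted p under 0.05. This turned on single libraries. Without model 3, features 1, 2, 4, 5, 6, 7 and 8 passed as lower in model (edgeR adjusted p = 0.0310 to 0.0453). Without model 1, features 5 to 8 passed (edgeR adjusted p = 0.0211 to 0.0259), and without control 1, features 1 and 2 did (edgeR adjusted p = 0.0375 and 0.0418). Their log2 fold changes were -1.30 to -1.17 with adjusted p of 0.0542 to 0.125. Feature 1 held 8.57% ± 3.56 in control and 4.71% ± 2.99 in model (SD, n = 6 each), with a log2 fold change of -1.28 (SE 0.53, edgeR adjusted p = 0.0542). Feature 5 held 7.03% ± 3.18 and 3.28% ± 1.27 (SD, n = 6 each), with a log2 fold change of -1.24 (SE 0.57, edgeR adjusted p = 0.0833). These fold changes use scaling factors of the fit over 18 libraries and are not the ratios of the mean shares, 0.549 and 0.467. For features 1 and 5 they were -0.916 and -0.846 with RLE factors (edgeR adjusted p = 0.179 and 0.150). In a fit on the 12 libraries they were -0.902 and -0.950 (edgeR adjusted p = 0.0681 and 0.0957).

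The next features did not follow them. Features 9 and 10 together held 1.23% to 3.004% in control, while model 3 and model 6 stood out at 7.13% and 9.30% and the other model libraries held 1.19% to 3.41%. Features 11 and 12 together held 1.503% to 2.11% in each control library. In model they ranged more widely, from 0.438% in model 5 to 4.397% in model 3 and 10.04% in model 1. None of these 4 features passed (edgeR adjusted p = 0.741 to 0.798).

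**Figure D3:**
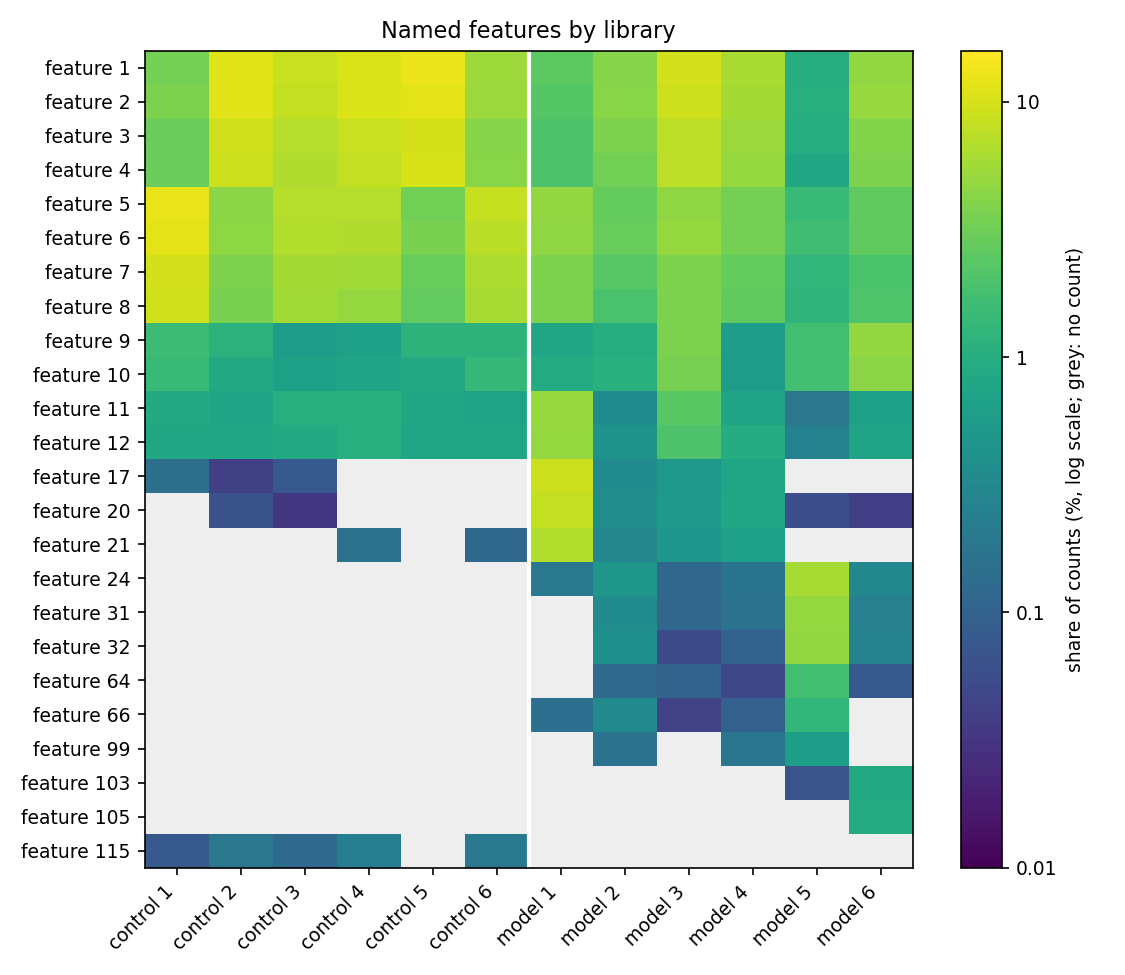
Rows are named features, columns are the 12 libraries, and colour gives the share of counts in percent on a log scale, with grey where a library had no count. Features 1 to 8 are high across control and lowest in model 5, features 17, 20 and 21 peak in model 1, and features 24, 31, 32, 64 and 66 have no control count and peak in model 5.

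The second question was how far membership was replaced. Of the 5289 features, 2270 were seen only in control, 2552 only in model and 467 (8.83%) in both groups. Those 467 held 86.8% ± 3.50 of control counts and 77.0% ± 18.5 of model counts (SD, n = 6 each). Most membership was private: 4541 features (85.9%) were seen in a single library, 2152 of them in control and 2389 in model. Features seen in 1 library held 8.92% ± 2.52 of counts in control and 10.7% ± 6.63 in model (SD, n = 6 each). The difference, 1.82 percentage points, missed the threshold (exact permutation p = 0.541). Model 3 and model 1 held 1.22% and 3.49% there, below the control range of 5.47% to 11.9%, and the other 4 model libraries held 12.7% to 15.9%, above it. Without model 3 the difference was 3.73 and without model 1 it was 3.39 (adjusted exact permutation p = 0.160 and 0.251).

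The share of counts in features with no count in 5 control libraries says how much of a library lies outside the membership of those libraries. Features seen in 1 library are part of that share, at 5.47% to 11.9% in control and 1.22% to 15.9% in model. It therefore does not measure replacement of shared members alone. A control library was set against the other 5 control libraries, and a model library against each choice of 5. Control libraries held 7.86% to 15.05% in such features. Model 1 to 6 held 7.33%, 31.04%, 3.15%, 26.5%, 56.6% and 22.2%. Thus 4 model libraries lay above every control library, and model 1 and model 3 lay below every control library. The mean rose from 11.2% ± 2.85 to 24.5% ± 19.1 (SD, n = 6 each; exact permutation p = 0.0108, adjusted p = 0.0216 over 4 measures of turnover). With model 5 left out, the rise shrank from 13.3 to 6.86 percentage points and no longer passed (adjusted exact permutation p = 0.141).

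The features common to all 12 libraries were few and abundant. These 26 features held 67.6%, 68.3%, 65.7%, 74.1%, 68.1% and 57.6% of counts in control 1 to 6 and 52.6%, 35.6%, 74.5%, 44.5%, 17.9% and 51.3% in model 1 to 6. Model 3 exceeded every control library, and the other 5 model libraries lay below all of them. The mean fell by 20.8 percentage points, from 66.9% ± 5.37 to 46.1% ± 18.9 (SD, n = 6 each; exact permutation p = 0.0303, adjusted p = 0.0404). That call ended without control 1, 2, 3, 4 or 5 or model 2, 4 or 5 (adjusted exact permutation p = 0.0548 to 0.130). Without model 5 the fall was 14.6 percentage points.

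The control core was mostly retained as membership. Of 49 features seen in all 6 control libraries, 26 were also seen in all 6 model libraries, 22 in some of them and 1 in none. Model 1 to 6 held 40, 45, 45, 47, 31 and 46 of the 49. They differed far more in the share of counts that those 49 features held, at 55.2%, 43.5%, 87.5%, 51.0%, 18.6% and 59.6%, against 65.3% to 81.2% in control. In the other direction, 33 features were seen in all 6 model libraries. Of these, 26 were in all 6 control libraries, 6 in some and 1, feature 24, in none. The control core was chosen on control libraries and the model core on model libraries, so each share within its own group is high by choice.

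Presence alone was compared over pairs of libraries. The Sorensen dissimilarity, which runs from 0 for the same features to 1 for none in common, averaged 0.854 over the 36 control-model pairs, 0.821 over 15 control pairs and 0.834 over 15 model pairs. Its turnover part, which is free of differences in the number of features, averaged 0.792 between groups, 0.799 among control and 0.722 among model. The between-group mean exceeded the mean of the within-group means by 0.0317 (exact permutation p = 0.00433, adjusted p = 0.0173). It did not exceed the control pairs, and the within-group mean was lowered by the values among model libraries. Replacement made up 97.3% of the dissimilarity among control pairs and 86.7% among model pairs, where the nestedness part reached 0.307 for pairs that joined a feature-poor and a feature-rich library.

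The third question was which features carried the difference in abundance. The Bray-Curtis distance, 0 for equal shares and 1 for no overlap, averaged 0.583 over the 36 control-model pairs, 0.402 over control pairs and 0.612 over model pairs. The mean among model pairs was thus no lower than that between the groups. Group membership took an R2 of 0.208 of the squared distances (exact permutation p = 0.00433, adjusted p = 0.00866). Model libraries lay farther from their own centre, by 0.133 (exact permutation p = 0.0216), a call that ended without model 1 (0.107, exact permutation p = 0.0563) or model 5 (0.0781, exact permutation p = 0.0952). It also ended when group centres were recomputed in every split (exact permutation p = 0.0563).

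The model distances differed widely from library to library. Mean distances to the control libraries were 0.643, 0.576, 0.394, 0.502, 0.813 and 0.571 for model 1 to 6, and control libraries lay 0.344 to 0.486 from each other on average. Model 3 was inside that control range and was nearest to control 4, at 0.321. Model 1, 5 and 6 had other model libraries as nearest neighbours, at 0.576, 0.717 and 0.445. Model 2 and model 4 were nearest to each other, at 0.420. The closest control pair was control 2 and control 4, at 0.265.

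Features were put into 4 classes by their mean share over the 12 libraries, a rule that does not use the groups. The class of at least 1% held 16 features, that of 0.1% to 1% held 76, that of 0.01% to 0.1% held 626 and that under 0.01% held 4571. At the limits, feature 16 at 1.06% lay just inside the first class and feature 17 at 0.881% just outside, feature 92 at 0.1003% and feature 93 at 0.0967% lay on either side of the second limit, and feature 718 at 0.01001% and feature 719 at 0.00998% on either side of the third. From the most to the least abundant class, the parts of the between-group distance were 0.200, 0.156, 0.141 and 0.0858, or 34.3%, 26.8%, 24.2% and 14.7% of it. Among control pairs the parts were 0.157, 0.0518, 0.111 and 0.0823, and among model pairs 0.153, 0.218, 0.153 and 0.0885.

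The excess of each part between groups over the mean within groups was taken for each class. For the class of at least 1%, the between-group part (0.200) exceeded those among control pairs (0.157) and model pairs (0.153). In the other classes the between-group part lay above the control part but below the model part. From more to less abundant, it was 0.156 against 0.218, 0.141 against 0.153 and 0.0858 against 0.0885 among model pairs. Their excess thus rests on the lower part among control pairs. The 16 features of at least 1% gave an excess of 0.0449, or 59.04% of the total of 0.0760 (exact permutation p = 0.0152, adjusted p = 0.0173 over 4 classes). The 76 features of 0.1% to 1% gave 0.0214, or 28.2% (exact permutation p = 0.00216, the smallest this design allows, adjusted p = 0.00866). The class of 0.01% to 0.1% gave 0.00924, or 12.2% (exact permutation p = 0.0152, adjusted p = 0.0173). The 4571 rarest features gave 0.000435, or 0.573% of the excess, although they carried 14.7% of the distance itself (exact permutation p = 0.0173, adjusted p = 0.0173). Nearly all of their distance was thus present within groups as well.

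Leaving out model 6 ended the call for the class of at least 1% (0.0365, adjusted exact permutation p = 0.0519). The call for the rarest class ended without control 2 (0.000236), control 5 (0.000243), model 2 (0.000312), model 3 (0.000304), model 4 (0.000317) or model 6 (0.000291), with adjusted exact permutation p of 0.0649 to 0.121.

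**Figure D4:**
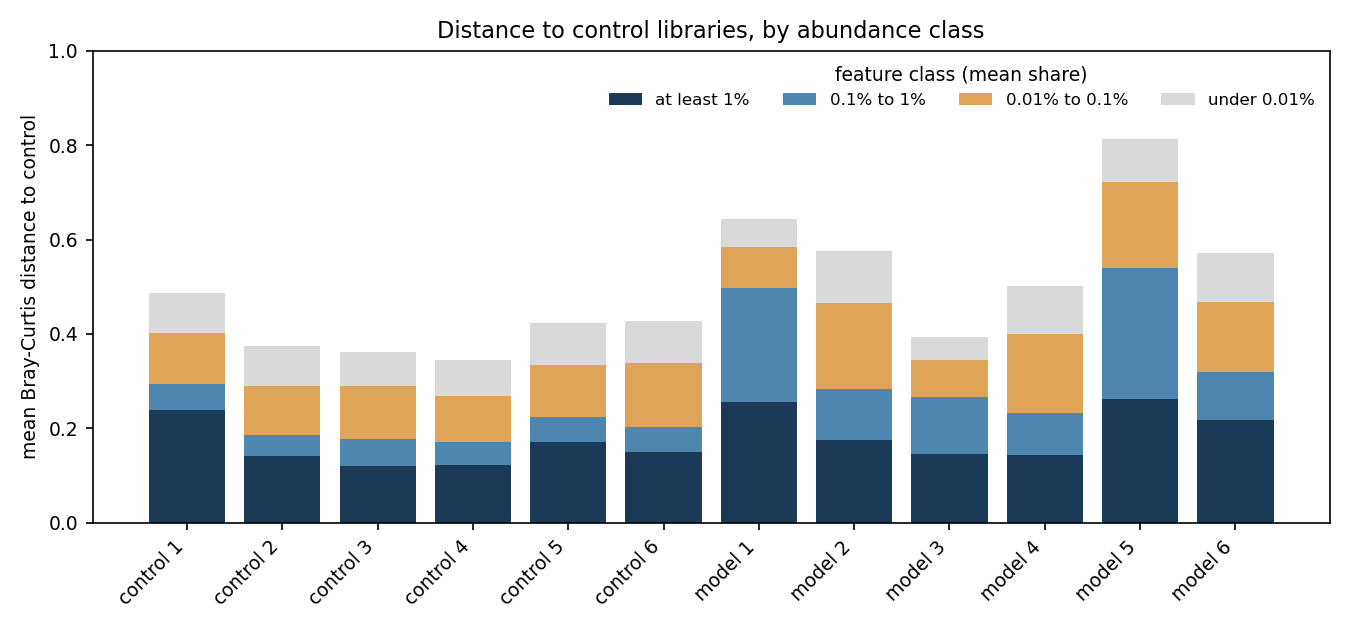
Bars show the mean Bray-Curtis distance of each library to the control libraries (for a control library, to the other 5), divided by the abundance class of the features. The part from features of 0.1% to 1% is 0.0436 to 0.0580 in control libraries and 0.0885 to 0.278 in model libraries, where model 1 and model 5 are highest.

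By library, only the class of 0.1% to 1% had parts of the distance to control that did not overlap between groups. Its part was 0.0436 to 0.0580 for control libraries and 0.242, 0.108, 0.120, 0.0885, 0.278 and 0.101 for model 1 to 6. A single high library raises the mean share that forms the classes, so part of this separation can follow from the class rule. Of the 76 features in the class, 13 were seen only in model and 1 only in control. The part from features of at least 1% overlapped, at 0.120 to 0.239 in control and 0.144 to 0.262 in model. The part from the rarest class also overlapped, at 0.0718 to 0.0902 in control and 0.0494 to 0.110 in model, with model 3 and model 1 lowest.

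The share of counts fell in the most abundant class and rose in the next. Features of at least 1% held 54.1% to 71.1% of counts in control and 47.2%, 31.7%, 66.1%, 41.5%, 15.4% and 43.3% in model 1 to 6, with model 3 alone inside the control range. The mean fell by 22.7 percentage points, from 63.6% ± 5.52 to 40.9% ± 16.8 (SD, n = 6 each; exact permutation p = 0.0130, adjusted p = 0.0260). Features of 0.1% to 1% held 10.7% to 17.5% in control and 45.2%, 25.8%, 29.5%, 19.4%, 47.5% and 23.5% in model 1 to 6, with no overlap. Their mean rose by 17.9 percentage points, from 13.9% ± 2.23 to 31.8% ± 11.8 (SD, n = 6 each; exact permutation p = 0.00216, adjusted p = 0.00866).

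That rise depends on how classes are formed. With classes set by the median share, which moves features that are high in 1 or a few libraries into lower classes, the rise of the class of 0.1% to 1% was 5.64 percentage points (adjusted exact permutation p = 0.266). That of the class of 0.01% to 0.1% was then 9.49 (adjusted exact permutation p = 0.0433). In the model group, 60.3% of the summed share of the class of 0.1% to 1% came from each feature's highest library, against 35.3% in control. For the class of at least 1% these values were 33.6% in model and 25.9% in control.

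The rarer classes did not pass as groups. Features of 0.01% to 0.1% held 14.1% ± 4.27 in control and 18.3% ± 11.9 in model (SD, n = 6 each; exact permutation p = 0.424). Those under 0.01% held 8.35% ± 1.80 and 8.97% ± 5.14 (SD, n = 6 each; exact permutation p = 0.781). In both, model 1 and model 3 lay below every control library, at 3.89% and 2.80% in the first and 3.67% and 1.56% in the second.

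**Figure D5:**
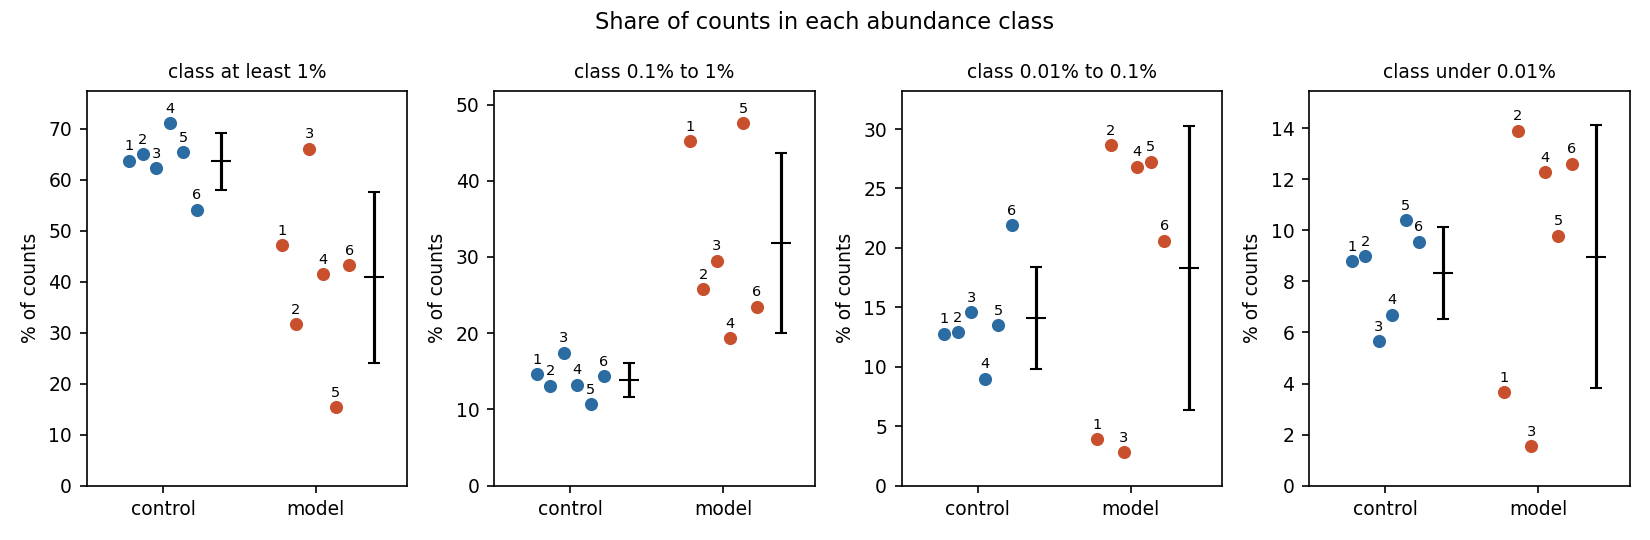
Each panel gives the share of counts in percent held by a class of features in each library, numbered by replicate, with the group mean and SD (n = 6 each). Features of at least 1% are lower in 5 of 6 model libraries than in any control library, and features of 0.1% to 1% are higher in all 6.

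Over single features, 40 carried 50% of the between-group distance and 465 carried 80% of it. Falls were more concentrated than rises: 8 features made up 50% of the summed fall of 49.3 percentage points in the group means, while 35 made up 50% of the equal summed rise. Features 1, 2 and 5 were the largest contributors, with 4.14%, 4.02% and 3.38% of the distance. In the class of 0.1% to 1%, the largest were features 17, 20 and 21, with 1.46%, 1.40% and 1.17%.

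Features 17, 20 and 21 were highest in model 1. Feature 17 held 0.150%, 0.0401% and 0.0752% in control 1, 2 and 3 and had no count in the other control libraries. It held 8.67% in model 1, 0.349%, 0.507% and 0.783% in model 2, 3 and 4, and no count in model 5 and model 6. The groups overlapped, and the log2 fold change of 5.31 (SE 1.22, edgeR adjusted p = 0.000516) was 2.44 without model 1 and did not pass (edgeR adjusted p = 0.364). Feature 20 rose with a log2 fold change of 6.60 (SE 1.31, edgeR adjusted p = 3.20e-05), which was 3.93 without model 1 (edgeR adjusted p = 0.0608). Feature 21 rose with a log2 fold change of 5.30 (SE 1.32, edgeR adjusted p = 0.00146), which was 2.43 without model 1 (edgeR adjusted p = 0.445). Together these 3 features held 23.6% of model 1, at most 2.26% of any other model library and at most 0.159% of any control library.

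Features 24, 31 and 32 were absent from the control counts and highest in model 5. Feature 24, identifier 2eb0317b744004410680039ca426a1c1, held 0.189%, 0.494%, 0.114%, 0.169%, 6.03% and 0.311% in model 1 to 6. All model libraries lay above control, and its share over the group was at least 897-fold higher (floor of 3 counts over all control libraries, edgeR adjusted p = 1.98e-13), or at least 188-fold without model 5. With no control count, feature 24 entered the test only through model and treated libraries. It was also named as one of the largest called rises, so its p is a description. Feature 31 had no count in model 1, 0.346%, 0.114%, 0.160% and 0.247% in model 2, 3, 4 and 6, and 5.01% in model 5. Together the 3 features held 15.8% of model 5 and 0.189% to 1.24% of the other model libraries. Features 64 and 66 followed the same pattern at a lower level, with 1.68% and 1.32% in model 5 and at most 0.336% elsewhere in model. Model 5 also held 13 features of at least 1% that were absent from all control libraries, and no other model library held such a feature. Conversely, control 1 held 1 feature of at least 1% that was absent from all model libraries, feature 63, and no other control library held such a feature.

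Rarer features rested on few libraries. Feature 99 was seen in 3 model libraries, feature 103 in 2 and feature 105 in model 6 alone, where it held 0.931%. edgeR called features 103 and 105 higher in model (adjusted p = 0.0289 each), but neither had a control count, so they entered the test only through model and treated libraries. Both calls ended without control 1, 2, 3, 4, 5 or 6 (edgeR adjusted p = 0.0554 to 0.0648), and without model 6 feature 103 did not pass (edgeR adjusted p = 0.0606) and feature 105 had no count in either group. Among the features under 0.01%, the largest contributors were features 719, 720 and 721, seen only in control 3, control 1 and model 2, at 0.120% in each.

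In the other direction, feature 115 held 0.0779%, 0.184%, 0.125%, 0.239% and 0.197% in control 1, 2, 3, 4 and 6. It had no count in control 5 or in any model library, at least 88.8-fold lower in model (edgeR adjusted p = 0.0312). With no model count, feature 115 entered the test only through control and treated libraries. It was also named for its call, so its p is a description. The call ended without control 2 (edgeR adjusted p = 0.0616) or control 4 (edgeR adjusted p = 0.0554). A larger control-only feature, feature 63, did not reach the count filter and was not tested. It held 1.56%, 0.361% and 0.125% in control 1, 2 and 3 and had no count in the other control libraries or in model. It is named after its values were seen. Shares did not overlap between groups for 3 of the 431 tested features, with 0.464% of the 431 higher and 0.232% lower in model. They were features 22 and 24, higher in model, and feature 275, lower; features 22 and 275 are named after their values were seen. Feature 22 held 0.0597% in control 4 alone and 6.64%, 0.236%, 0.453%, 0.545%, 0.0939% and 0.0702% in model 1 to 6. Feature 275 held 0.0139% to 0.121% in the 6 control libraries and had no count in model.

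With all libraries in the fit, edgeR called no feature of at least 1% and made its calls among less abundant ones. Of 431 tested features edgeR called 26.7% (115), 23.9% higher and 2.78% lower in model. Of the 103 called higher, 91 had no control count, so they entered the test only through model and treated libraries, and the 12 called lower had no model count. The numbers of higher and lower calls are therefore no measure of direction. Of the 16 features of at least 1%, none was called by edgeR, with features 1 and 2 lowest at an adjusted p of 0.0542 and 8 at an unadjusted p under 0.05, all lower in model. Without model 3, 7 of these 8 were called lower, without model 1, features 5 to 8 were, and without control 1, features 1 and 2 were. Of 75 tested features of 0.1% to 1%, 25 were called higher and none lower (1 lower at an unadjusted p under 0.05). Of 299 tested features of 0.01% to 0.1%, 76 were called higher and 11 lower, and of 39 tested rarer features 2 were called higher and 1 lower. A feature had to reach 10 counts in 4 of the 18 libraries to be tested, and the 18 include the treated group.

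Few of the features called higher were shared by all model libraries, and few features were in general (33 of all 5289, or 0.624%). Of the 103 called higher, 5 were seen in all 6 model libraries, 33 in at least 4 and 44 in at most 2, 12 of these in a single library. For 42 of the 103 the highest library was model 5, for 27 model 4, for 21 model 2 and for 8 model 1. Matching counts for tested features that were not called are not given, so these counts are a description. Together the features called higher held 35.4%, 13.7%, 3.76%, 14.1%, 49.3% and 6.49% of counts in model 1 to 6, and 0.0260% to 0.587% in control libraries. The 12 features called lower held 0.676% to 1.10% of control counts. Both sets were chosen by their calls on these same libraries, so the contrast of their shares between groups is set by that choice and is a description. Without model 5 edgeR called 72 features, and without control 1, 2, 3, 4, 5 or 6 it called 26, 22, 30, 23, 23 and 31. At an unadjusted edgeR p under 0.05, the fits without a control library had 149, 151, 174, 157, 149 and 167 features, against 151 in the full fit. Only the adjusted calls dropped. An exact permutation test on log2(CPM + 10), CPM being counts scaled to the library total, called 0 of 431, with 36 at an unadjusted p under 0.05, where edgeR had 151. Its p cannot fall under 0.00216, so after adjustment over 431 features any could pass only if many reached that floor together. The 0 calls therefore say little about the edgeR calls.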

How the data were processed

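The authors deposited a table of whole read counts, 1 value for each feature and library, which the file header describes as built from BIOM. The series' design text names denoising and clustering of reads. Tools, trimming and chimera removal: not given in the sources used here. Those steps decide how many features an organism yields. Each count was divided by its library total. A table of 8405 features in 18 libraries was read, of which 5289 occurred in the 12 libraries.

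Differences of group means and distances were tested by exact permutation over all 924 assignments of the group labels (two-sided, except R2; smallest two-sided p 0.00216) and adjusted by Benjamini-Hochberg within families of 2 (community), 5 (dominance and evenness), 4 (turnover), 4 (class distances) and 4 (class shares). Distances to the own group centre were held fixed while labels were permuted. Features reaching 10 counts in 4 or more libraries were fitted with edgeR 4.0.16 (TMM factors, glmQLFit, glmQLFTest, R 4.3.3) over all 18 libraries, which share an estimate of spread. Procedures were tested on simulated data. The quasi-likelihood test gives no standard error, so each SE is the absolute log2 fold change divided by the square root of the F statistic. Equal depth was 30958 counts.

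Named features were the 12 most abundant, the leader of each library, the 3 largest contributors in each class, and the 5 largest rises and the falls (there was 1) that edgeR called and whose group mean reached 0.1%. A fold against a group without counts used a floor of 3 counts over that group. The comparison and its measures were chosen with earlier results of these data known. Alternatives were DESeq2 1.42.0, other factors and filters, thinning, other distances and class rules, a replicate block, and leaving out each library. Calculations used numpy 2.4.6 and pandas 2.3.3 in Python 3.11.15; scipy was 1.17.1 and matplotlib 3.10.9. No sequence is printed.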

Additional observations from a re-analysis of the deposited data

Results flagged for a closer look

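In 16 of 68 sets of 6 library values with any spread, a single library lay apart from the others, its gap to the nearest value, as a share of the group's range, exceeding Dixon's critical value for 6 samples; chance alone would give this in about 1 of 20 sets. Many of these features were named because they are high, so the number is a description.

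Model 5 stood apart in 6 features, with 6.03% of counts in feature 24 (next highest model library 0.494%), 5.01% in feature 31 (0.346%), 4.80% in feature 32 (0.404%), 1.68% in feature 64 (0.129%), 1.32% in feature 66 (0.336%) and 0.598% in feature 99 (0.182%). Model 1 stood apart in 4, with 8.67% in feature 17 (0.783%), 8.06% in feature 20 (0.807%), 6.85% in feature 21 (0.672%) and 4.95% in feature 12 (2.01%). Model 6 held 0.867% in feature 103 (0.0689%) and 0.931% in feature 105, which no other library of the group held. Feature 719 in control 3 (0.120%), feature 720 in control 1 (0.120%) and feature 721 in model 2 (0.120%) were each seen in that library only. In control, control 6 had an effective number of features of order 1 of 104, where the next highest control library had 65.7.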

How the results depend on the processing

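Bray-Curtis R2, which has no direction, kept its call in all 12 settings that left out a library (0.191 to 0.250) and in its 5 other settings. The fall and the rise of the 2 most abundant classes kept direction and call in all 12 (-27.8 to -17.6 and 12.98 to 20.2 percentage points). With a library left out, the other results ranged as follows. The effective number of order 2 differed by 20.4 to 33.7, that of order 1 by 48.1 to 90.8, Pielou evenness by 0.0721 to 0.102 and the leading share by -4.57 to -3.52. Features at equal depth differed by -1.01 to 154, the spread by 0.0781 to 0.165, and the share in features not seen in control by 6.86 to 17.5. The share in features seen in all libraries differed by -26.5 to -14.6, the share of the rarest class by -0.0310 to 2.04, and the excess distance by 0.0328 to 0.0666 in the class of at least 1% and 0.000236 to 0.000486 in the rarest. edgeR calls ranged from 22 to 132.

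With the replicate block, permuting only within the 6 same-numbered pairs, the smallest p is 0.0312, so families of 4 or 5 pass only where most members reach it. Adjusted exact permutation p was 0.104 for order 2 (28.2), evenness (0.0852) and the leading share (-3.98), 0.0625 for features not seen in control (13.3) and Sorensen turnover (0.0317), and 0.125 for features seen in all libraries (-20.8). For excess distance it was 0.0625 in the first classes (0.0449 and 0.0214) and 0.0938 in the others (0.00924 and 0.000435), and for class shares 0.125 (-22.7 and 17.9). The block left 20 edgeR calls, and the numbers did not pair the samples: same-numbered deviations from the group means, on log2(CPM + 10), correlated at -0.174 to 0.0271, and 0 of 12 libraries matched its own number best.

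Only features with at least 10 counts gave -0.238 percentage points for the rarest class. Classes by median share gave 5.64 and 9.49 for the middle classes, and recomputed centres, chosen after seeing the data, left the spread at 0.133 (exact permutation p = 0.0563). The number of calls, 115, was 20 without a count filter, 58 with 10 counts in 6 libraries and 58 in a fit on the 12 libraries. It was 47 by DESeq2 (132 features without an adjusted p) and 118 with RLE factors. By the exact test, which could hardly pass any feature after adjustment, it was 0. With a library left out, the log2 fold change of feature 11 ran from -0.49 (without model 1) to 0.96, that of feature 12 from -0.36 (without model 1) to 0.98 and that of feature 105 from 0 (without model 6) to 8.81. On the exact test's scale feature 11 differed by -0.014. The causes were not tested.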

Other observations

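The 2 leading sets stood in opposite order across control libraries. Features 1 to 4 held 12.9% of counts in control 1, where features 5 to 8 held 42.9%, and 44.4% in control 5, where features 5 to 8 held 12.4%. The sum varied much less, from 47.1% to 61.9% over the 6 control libraries. The shares of feature 1 and feature 5 correlated at -0.937 over the 6 control libraries and at 0.00741 over all 12. Shares of a common total that make up most of it tend to oppose each other, so this is a description.

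Several further features moved in pairs over the 12 libraries. Shares of features 9 and 10 correlated at 0.994, those of features 13 and 14 at 0.997 and those of features 15 and 16 at 0.997. Features 15 and 16 together held 1.12% to 4.27% in control and 0.420% to 2.82% in model. Features 13 and 14 together held 0.287% to 2.15% in control and 1.08% to 4.81% in 5 model libraries, with 9.22% in model 1. Features 17, 20 and 21 correlated at 0.999 or more, and so did features 24, 31 and 32.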
